A study of Homo sapiens with 6 samples.

Results

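The genes that open and copy DNA at replication origins and forks were examined in RD cells, an established embryonal rhabdomyosarcoma cell line, after knockdown of the kinase TAK1. The list held 51 genes, chosen by symbol from the 58735 rows of the count table: the subunits of the origin recognition complex, the licensing factors, the MCM helicase, its activators, the replicative polymerases, the sliding clamp and its loader, and the proteins that protect and process the fork. The genes were chosen with earlier results of these data known. All 51 had a row of their own and all 51 passed the filter on low counts, which left 15935 genes for testing. The control group was RD cells transduced with lentivirus carrying scrambled shRNA (3 cultures), and the knockdown group was RD cells transduced with lentivirus carrying TAK1 shRNA (3 cultures). Both groups therefore share the viral vector, which also carries mCherry and a puromycin resistance gene. The knockdown rests on 1 of the 2 TAK1 shRNA sequences described in the methods, so an effect of lowered TAK1 and an effect of that construct cannot be told apart. All cultures come from 1 cell line, the sources do not say whether they were transduced separately, and p-values measure the spread between these 6 libraries.

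Before S phase, the origin recognition complex (ORC) marks sites on DNA, and CDC6 and CDT1 load there the ring-shaped MCM2 to MCM7 helicase, a step called licensing. At the onset of S phase the kinase CDC7 with its partner DBF4 activates the loaded rings, which join CDC45 and the GINS complex to unwind DNA. Polymerase alpha with primase then lays down primers, polymerases delta and epsilon extend them on the PCNA clamp, and RPA covers exposed single strands. Many of these genes are transcribed in late G1 and S phase under E2F factors, which RB family proteins hold back in resting cells. Myoblasts leave the cell cycle as they differentiate, a step that rhabdomyosarcoma cells complete poorly.

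Total counts per culture ran from 28839898 to 34469323, with 0.505% to 0.599% of them on the replication genes. Levels are given in CPM, the share of a library's counts scaled to a common total, with library sizes adjusted by the trimmed mean of M-values. MAP3K7, the gene for TAK1 (chr6:90513573-90587086, minus strand), was at 77.9, 76.5 and 77.6 CPM with scrambled shRNA and at 30.5, 33.6 and 29.9 CPM with TAK1 shRNA, a log2 fold change of -1.30 (SE 0.062, adjusted p = 4.45e-14 by edgeR), so the targeted gene was lower in every library labelled as knockdown. Muscle lineage markers were present, with a summed level of 1659 to 1785 CPM over MYOD1, MYOG, DES, MYF5, CHRNA1 and MYH3, of which MYF5 had 0 counts in every library. Of the 5 tested, MYOD1 and MYOG were higher and CHRNA1 lower in knockdown cells, and the share of mitochondrial counts was 0.991% to 1.13% in control and 1.22% to 1.33% in knockdown libraries; the part of either in the values below was not tested. Markers of leukocytes, epithelium and endothelium, 3 genes each, summed to at most 0.413, 4.36 and 0.162 CPM.

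The windows around the start of these genes were searched for motifs of cell cycle promoters. Promoter sequences came from the RefSeq table for GRCh38.p14, from 250 bases before to 50 bases after a gene's start. A window was found for 45 of the 51 genes and not for RPA2, RPA3, MCM4, MCM5, POLD3 and GINS4, which were not searched. The E2F type was searched as TTTGGCGC, TTTCCCGC, TTTCGCGC and TTTGCCGC on both strands, and overlapping matches were counted apart. Stretches of 200 bases that end just before the start site are shown for 6 genes, read 5′ to 3′ on the gene's strand, with E2F-type matches in capitals. They are CDC7, TIPIN and PCNA, the 3 genes with the largest falls, and MCM6, GINS2 and CDT1, which stand for the helicase, its activation and licensing. No annotated exon lies over any of these stretches, and those of CDC7, CDT1 and MCM6 lie outside every annotated gene, while those of TIPIN, PCNA and GINS2 lie in introns of longer transcripts of the same gene.
CDC7, chr1:91500651-91500850, plus strand: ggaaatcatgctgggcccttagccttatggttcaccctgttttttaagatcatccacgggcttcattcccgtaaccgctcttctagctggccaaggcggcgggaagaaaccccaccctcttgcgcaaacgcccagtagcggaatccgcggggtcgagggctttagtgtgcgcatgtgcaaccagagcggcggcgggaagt
TIPIN, chr15:66356686-66356885, minus strand: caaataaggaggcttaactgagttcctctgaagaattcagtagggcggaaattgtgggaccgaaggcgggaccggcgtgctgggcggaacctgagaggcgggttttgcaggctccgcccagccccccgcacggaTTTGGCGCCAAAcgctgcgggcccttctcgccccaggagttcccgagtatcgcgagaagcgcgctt
PCNA, chr20:5119959-5120158, minus strand: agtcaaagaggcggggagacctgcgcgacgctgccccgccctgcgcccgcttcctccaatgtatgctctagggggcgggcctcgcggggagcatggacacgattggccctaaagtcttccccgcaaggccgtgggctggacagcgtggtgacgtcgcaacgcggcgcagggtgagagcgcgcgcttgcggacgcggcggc
MCM6, chr2:135876444-135876643, minus strand: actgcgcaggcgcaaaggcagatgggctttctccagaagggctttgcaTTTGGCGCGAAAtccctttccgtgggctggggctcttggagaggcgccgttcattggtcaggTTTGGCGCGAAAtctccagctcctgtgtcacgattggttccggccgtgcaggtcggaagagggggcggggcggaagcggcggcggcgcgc
GINS2, chr16:85688955-85689154, minus strand: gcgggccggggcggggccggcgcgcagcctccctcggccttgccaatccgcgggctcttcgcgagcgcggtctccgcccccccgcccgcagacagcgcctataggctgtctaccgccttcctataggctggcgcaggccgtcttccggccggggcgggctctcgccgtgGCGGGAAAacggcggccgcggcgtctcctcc
CDT1, chr16:88803589-88803788, plus strand: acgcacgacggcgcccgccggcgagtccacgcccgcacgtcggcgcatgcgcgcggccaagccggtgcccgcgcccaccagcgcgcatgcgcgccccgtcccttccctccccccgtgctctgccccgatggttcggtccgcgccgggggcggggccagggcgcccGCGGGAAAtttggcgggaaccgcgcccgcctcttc

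An E2F-type match lay in the windows of 22 of the 45 replication genes (48.9%), against 5.47% of the 10273 windows of tested genes and 3.31% of all 35116 windows. In TIPIN, TTTGGCGC on one strand overlaps its own complement on the other, which gives 2 matches that begin 66 and 62 bases before the start. MCM6 held 4 matches, in pairs of TTTGGCGC and the complement of TTTCGCGC that share bases. In GINS2 and CDT1 a single TTTCCCGC, read on the opposite strand, began 31 and 35 bases before the start. The matches lay close to the start in many genes, and in 13 genes a match began within 20 bases of it. The windows of CDC7 and PCNA held no exact match. Only exact matches to the listed motifs of 8 bases were counted, so sites that differ by a base were not seen in any gene. Among the other helicase genes with a window, MCM2, MCM3 and MCM7 held 2 matches each.

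CCAAT, the box read by the factor NF-Y, lay on either strand in 25 of the 45 windows (55.6%), against 36.5% of those of tested genes. TTTGAA, a form of the CHR element of genes that peak in G2 and mitosis, lay in 1 window (2.22%, in DBF4), against 9.02%. Replication genes with an E2F-type match had a median log2 fold change of -0.32, and 15 of these 22 genes were called lower under the thresholds given with the main comparison. Without a match the median was -0.24, and 11 of 23 were called lower. Among tested genes outside the list, 83 of 540 with a match (15.4%) and 1278 of 9688 without one (13.2%) were called lower, beside 68.2% and 47.8% of the replication genes. The 6 genes without a window were all uncalled, so the shares for the replication genes rest on 26 called of 45 genes rather than of 51. They are descriptions and were not tested.

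**Figure D1:**
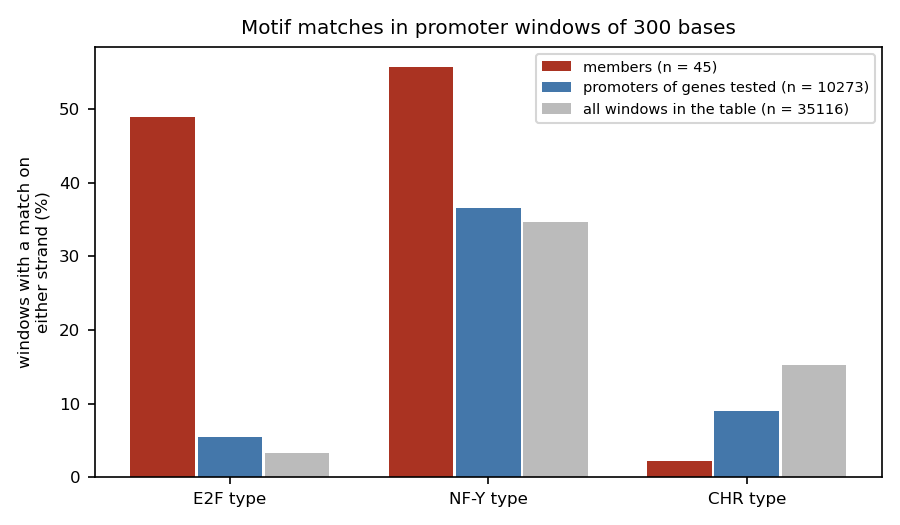
Share of promoter windows of 300 bases (y axis, %) that held an E2F-type, NF-Y-type or CHR-type match on either strand, for the replication genes (n = 45), all tested genes (n = 10273) and all windows in the table (n = 35116). The E2F type stood at 48.9% in the replication genes and at 5.47% in the tested genes.

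The main comparison asked whether the level of replication mRNAs differs between TAK1 knockdown and control cells. Expression of 50 of the 51 genes had a negative log2 fold change in TAK1 knockdown cells. A gene was called lower or higher when its adjusted p lay under 0.05 and its log2 fold change passed 0.25 in either direction. By this rule 26 of the 51 genes (51.0%) were lower and 0 were higher, while 11.3% of all genes tested were lower and 11.8% were higher (1805 and 1879 genes, or 1404 and 2376 with library size alone as the scaling). A further 14 genes were lower by adjusted p but under the fold threshold, and 1 gene, POLD2, was higher in the same way, which makes 40 genes (78.4%) lower by adjusted p alone, against 17.2% of all genes (16.1% higher). DESeq2 and limma voom also called 0 genes higher, and at an unadjusted p under 0.05 POLD2 was the 1 gene on that side. In 44 of the 51 genes all TAK1 knockdown cultures lay below all control cultures, which was so for 22.2% of genes tested. The reverse order, found in 21.6% of genes, was seen in POLD2.

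The median log2 fold change was -0.28, beside 0.018 over all genes tested, and 3 genes, CDC7, TIPIN and PCNA, fell by more than 0.5. Summed over the list, expression was 6135, 6049 and 6091 CPM with scrambled shRNA and 4983, 5045 and 5037 CPM with TAK1 shRNA. This is a fall of 17.6%, with SDs of 43.0 and 34.1 CPM (n = 3 in each group). The fall of the sum is a description without a test, since the genes were chosen with earlier results of these data known. Relative to the control mean, the median gene stood at 80.3%, 85.7% and 84.4% in the 3 knockdown cultures. In bulk RNA, a smaller share of cells in S phase and less of each mRNA per cell cannot be told apart.

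**Figure D2:**
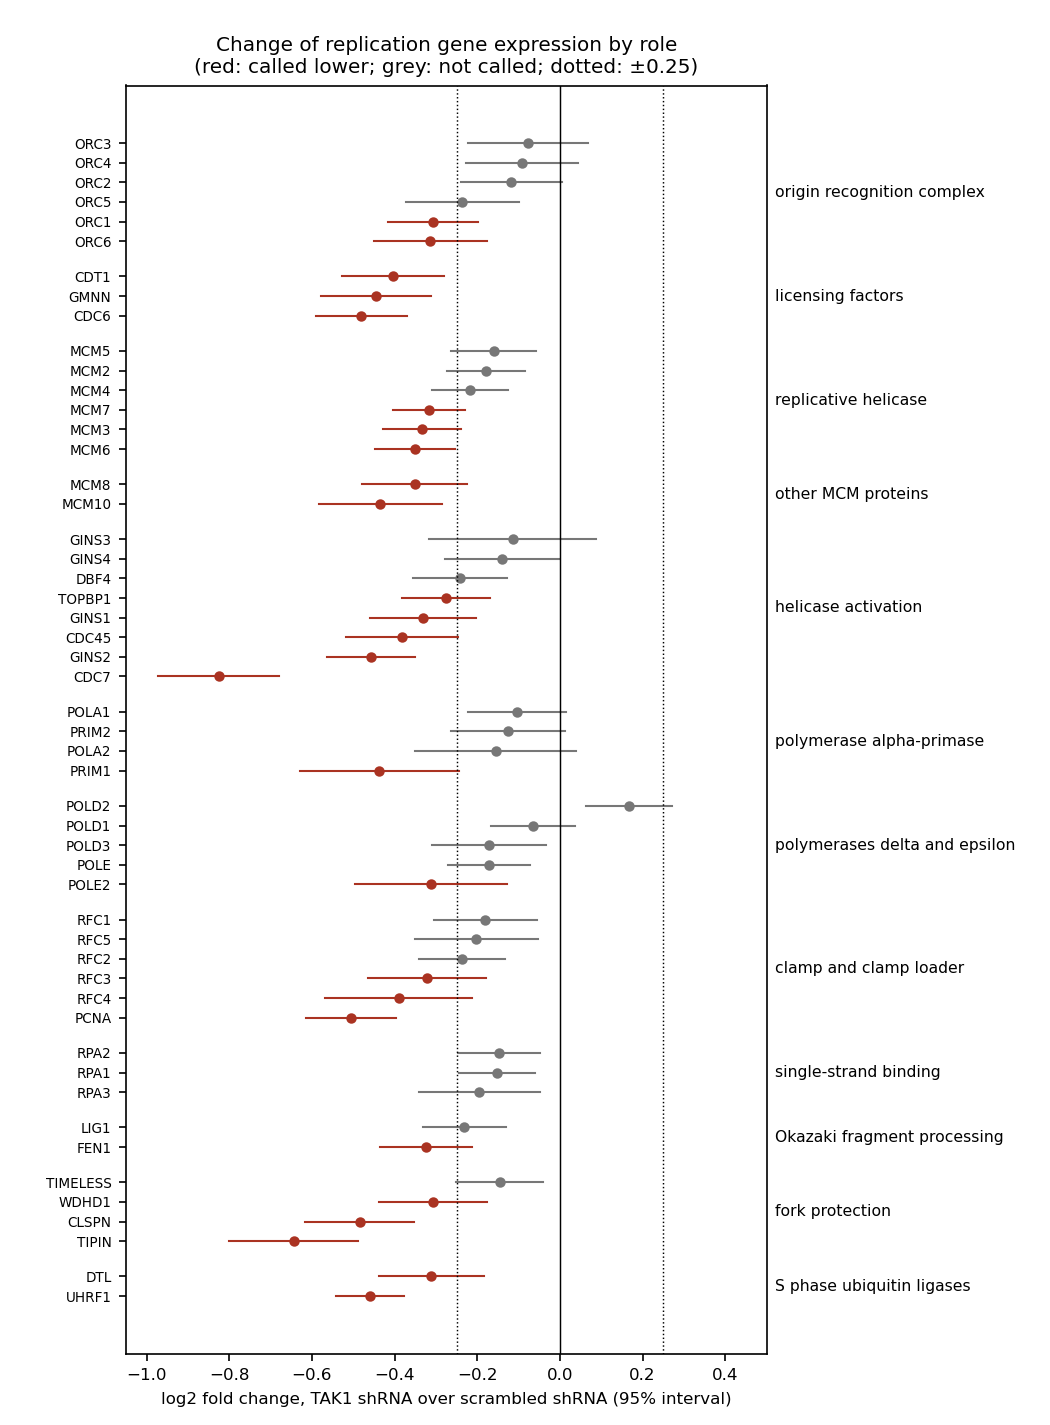
Log2 fold change (x axis, TAK1 shRNA over scrambled shRNA, n = 3 each) of the 51 replication genes by role, with 95% intervals from edgeR as lines, called genes in red, uncalled genes in grey and the fold threshold of 0.25 dotted. Of the 51 points, 50 lie left of 0, with CDC7 farthest left at -0.83 and POLD2 alone on the right at 0.17.

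**Figure D3:**
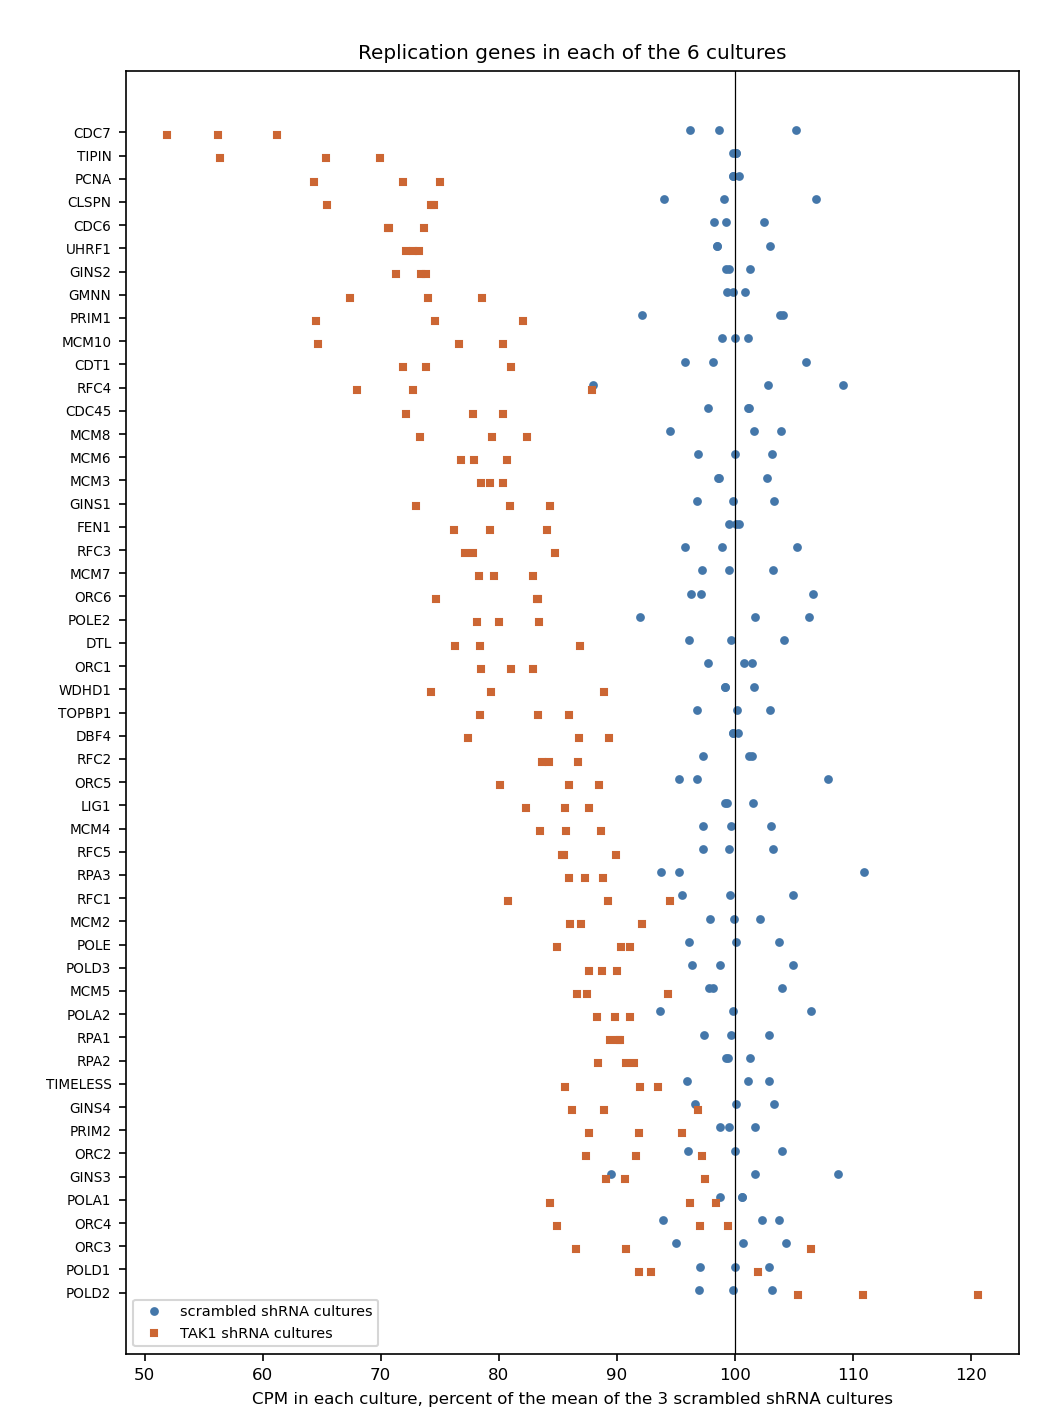
CPM of each replication gene in each of the 6 cultures, as a percent of its mean in the 3 scrambled shRNA cultures (x axis), with genes ordered by log2 fold change. The TAK1 shRNA squares lie left of all control circles for 44 genes, overlap them for 6 and lie to the right for POLD2.

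In the origin recognition complex 2 of 6 genes (33.3%) were called lower, beside 11.3% of all genes tested. ORC1, the subunit whose level rises and falls with the cell cycle, and ORC6, its smallest subunit, fell by 0.31 each on the log2 scale, while ORC2, ORC3, ORC4 and ORC5 were not called. ORC6 had the largest change, from 46.1, 46.5 and 51.1 CPM in control to 35.8, 39.9 and 39.9 CPM in TAK1 knockdown cultures (log2 fold change -0.31, SE 0.067, adjusted p = 0.000647). ORC3 had the smallest, with 52.2, 49.3 and 54.1 CPM in control and 44.9, 55.2 and 47.1 CPM in knockdown cultures. The ORC6 groups were apart, whereas 1 knockdown culture exceeded every control for ORC3 (log2 fold change -0.078, 95% interval -0.22 to 0.067, adjusted p = 0.435). ORC2 and ORC4, parts of the stable core with ORC3 and ORC5, also overlapped between groups, with log2 fold changes of -0.12 and -0.091. ORC5 lay between, at -0.24 (adjusted p = 0.00713), just under the fold threshold, and passed it in 4 of the 6 fits that left out 1 culture. The 95% intervals of ORC1 and ORC6 overlapped those of the uncalled subunits, and differences between subunits were not tested.

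All 3 licensing factors fell, and they did so by similar amounts. CDC6, the ATPase that joins ORC to recruit the helicase, went from 82.3, 84.9 and 81.4 CPM to 58.6, 58.5 and 61.0 CPM, a log2 fold change of -0.48 (SE 0.053, adjusted p = 1.18e-07). CDT1, which brings the MCM ring to ORC and CDC6, went from 83.7, 75.6 and 77.5 CPM to 63.9, 56.8 and 58.3 CPM (log2 fold change -0.40, SE 0.060, adjusted p = 7.64e-06). The highest knockdown value lay below the lowest control value in both genes. GMNN encodes geminin, the protein that binds CDT1 and blocks a second round of licensing. Its log2 fold change was -0.45 (adjusted p = 6.37e-06), so the inhibitor and its target fell together, and the ratio of their CPM overlapped between the groups.

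In the replicative helicase, all 6 subunits were lower by adjusted p and none overlapped between the groups, but the size differed among them. MCM3, MCM6 and MCM7 were called, at -0.33, -0.35 and -0.32, and MCM2, MCM4 and MCM5 lay under the fold threshold, at -0.18, -0.22 and -0.16. MCM6 went from 187, 181 and 193 CPM in control to 144, 146 and 151 CPM in knockdown cultures (SE 0.047, adjusted p = 2.02e-06). MCM5, the least changed, went from 151, 142 and 142 CPM to 137, 127 and 125 CPM (SE 0.050, adjusted p = 0.0146). The 95% intervals of MCM5 and MCM6, -0.26 to -0.058 and -0.45 to -0.25, overlapped, and their difference was not tested. Exons of MCM2 overlap an antisense gene over 32.4% of their length, so its count is less certain where strand was not used.

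Both remaining MCM genes fell. MCM10, an activation and elongation factor that is not part of the ring, went from 47.4, 46.9 and 46.4 CPM to 30.3, 37.7 and 35.9 CPM (log2 fold change -0.43, SE 0.072, adjusted p = 3.66e-05). MCM8, a related helicase with a role in recombination, went from 58.5, 64.3 and 62.9 CPM to 45.3, 49.1 and 51.0 CPM (log2 fold change -0.35, SE 0.062, adjusted p = 7.89e-05). The groups were apart in both. Reads of MCM8 may be shared with an annotated same-strand gene that covers 33.5% of its exonic bases.

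The largest fall on the list was that of CDC7 (chr1:91500851-91525764, plus strand), the catalytic subunit of the kinase that fires origins. It stood at 46.2, 47.4 and 50.5 CPM in control and at 27.0, 29.4 and 24.9 CPM in TAK1 knockdown cultures, which is a fall of 43.6%. The log2 fold change of -0.83 (SE 0.071, adjusted p = 1.59e-09) stayed between -0.89 and -0.78 with any 1 culture left out. DBF4, the regulatory subunit of that kinase, changed by -0.24 (adjusted p = 0.00118) and lay just under the fold threshold. Of the GINS complex, a tetramer, GINS1 and GINS2 fell by 0.33 and 0.46 on the log2 scale, whereas GINS3 and GINS4 passed neither threshold. GINS3 stood at 12.10, 13.75 and 14.69 CPM in control and 12.04, 12.26 and 13.18 CPM in knockdown cultures, which overlapped (log2 fold change -0.11, 95% interval -0.32 to 0.088, adjusted p = 0.410). It is also among the least expressed genes of the list, and its interval is the widest. Opposite-strand genes cover 14.4% of the exonic bases of GINS3 and 33.4% of those of GINS4, so their counts are less certain where strand was not used. CDC45, which completes the active helicase, fell by 0.38, and TOPBP1, a scaffold that helps to recruit it, by 0.28. TOPBP1 lay nearest to the fold threshold of the called genes, and it was under that threshold without replicate 1 of the knockdown cultures (-0.24) and with library size alone as the scaling (-0.23).

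Of polymerase alpha and primase, which start each new strand, PRIM1 alone was called. With 4 genes, this share of 25% cannot be set apart from the 11.3% of all genes tested that were lower. PRIM1, the catalytic primase subunit, went from 18.7, 21.1 and 21.1 CPM to 13.1, 16.7 and 15.1 CPM (log2 fold change -0.44, SE 0.093, adjusted p = 0.000659). POLA1, the catalytic polymerase subunit, went from 87.0, 88.6 and 88.6 CPM to 74.3, 86.6 and 84.7 CPM (log2 fold change -0.10, 95% interval -0.22 to 0.014, adjusted p = 0.174). The knockdown values of POLA1 lay below the controls, 1 of them only just. The regulatory subunits POLA2 and PRIM2 had log2 fold changes of -0.16 and -0.12 and were not called. Annotation limits this group, since 37.5% of the exonic bases of PRIM1 are shared with other genes, among them NACA, whose counts are far higher, and 55.8% of those of POLA2 with a same-strand gene.

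The polymerases that extend the strands had a median log2 fold change of -0.17. POLE2, the second subunit of the leading-strand polymerase epsilon, was the called gene among 5. With 5 genes, this share of 20% cannot be set apart from the 11.3% of all genes tested that were lower. POLE2 went from 17.7, 18.4 and 16.0 CPM to 13.9, 13.6 and 14.5 CPM (log2 fold change -0.31, SE 0.089, adjusted p = 0.00811). It lost the call without replicate 2 of the control cultures, at a log2 fold change of -0.27. POLE, the catalytic subunit, stood at -0.17 (adjusted p = 0.00725), and POLD1 and POLD3 of the lagging-strand polymerase delta at -0.065 and -0.17 with adjusted p of 0.341 and 0.0523. Reads of POLD1 may be shared with a same-strand gene that covers 12.4% of its exonic bases. POLD2, the second subunit of polymerase delta, went against all the others, from 210, 203 and 197 CPM in control to 246, 214 and 226 CPM in knockdown cultures. Its groups were apart, and its log2 fold change of 0.17 (SE 0.050, adjusted p = 0.0122) was between 0.11 and 0.21 over all alternatives tried.

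PCNA, the ring that tethers polymerases to DNA and a common marker of proliferation, had the third largest fall. It stood at 168, 168 and 167 CPM in control and at 108, 126 and 121 CPM in knockdown cultures, a log2 fold change of -0.50 (SE 0.053, adjusted p = 4.38e-08). The clamp loader that opens this ring has a large subunit, RFC1, and 4 small ones. RFC3 and RFC4 fell by 0.32 and 0.39, while RFC2 and RFC5 lay under the fold threshold at -0.24 and -0.20. RFC1 changed least, from 77.5, 74.4 and 81.7 CPM to 62.9, 73.6 and 69.5 CPM (log2 fold change -0.18, SE 0.060, adjusted p = 0.0230). All 6 genes of this group were lower by adjusted p with the groups apart, although the closest RFC4 values, 36.6 in control and 36.5 CPM in knockdown, almost met.

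The 3 subunits of RPA, the single-strand binding complex, moved alike and little. RPA3 went from 37.0, 37.6 and 43.8 CPM to 34.0, 35.1 and 34.5 CPM (log2 fold change -0.19, SE 0.071, adjusted p = 0.0362). RPA2 went from 114, 115 and 117 CPM to 105, 105 and 102 CPM (log2 fold change -0.15, SE 0.048, adjusted p = 0.0188). RPA1 stood at -0.15, and none of the 3 reached the fold threshold. FEN1, the nuclease that trims Okazaki fragments, was called, from 88.0, 88.5 and 88.7 CPM to 67.3, 70.1 and 74.3 CPM (log2 fold change -0.32, SE 0.053, adjusted p = 3.45e-05). LIG1, the ligase that joins the trimmed fragments, went from 122, 122 and 125 CPM to 105, 108 and 101 CPM (log2 fold change -0.23, SE 0.049, adjusted p = 0.000575), under the threshold.

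Among the proteins that steady the fork, TIPIN had the second largest fall of the list. TIPIN (chr15:66336191-66386746, minus strand) is the small partner of TIMELESS, and it stood at 38.9, 38.9 and 38.8 CPM in control and at 21.9, 25.4 and 27.2 CPM in knockdown cultures. Its log2 fold change was -0.64 (SE 0.076, adjusted p = 2.74e-07), between -0.72 and -0.56 with any 1 culture left out. TIMELESS went from 120, 129 and 126 CPM to 107, 115 and 117 CPM (log2 fold change -0.15, SE 0.051, adjusted p = 0.0293) and was not called. CLSPN, the claspin adaptor of the checkpoint kinase CHK1, fell by 0.48, and WDHD1, which couples polymerase alpha to the helicase, by 0.31. Without replicate 1 of the knockdown cultures WDHD1 came to the fold threshold, at -0.25, and lost the call.

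Both ubiquitin ligase genes fell. UHRF1, which reads hemimethylated DNA behind the fork and recruits the maintenance methylase, had 1010, 966 and 966 CPM in control and 719, 708 and 713 CPM in knockdown cultures (log2 fold change -0.46, SE 0.040, adjusted p = 1.99e-09). DTL, the receptor through which CDT1 is destroyed on PCNA during S phase, went from 63.5, 61.3 and 66.4 CPM to 48.63, 55.35 and 49.95 CPM (log2 fold change -0.31, SE 0.062, adjusted p = 0.000302). The change of UHRF1 has the narrowest interval of the list, -0.54 to -0.38.

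Because the products of many of these genes act in complexes or on one another, the ratio of partners was taken within each culture, which removes the scaling between libraries. The 10 pairs were chosen after the values were seen, so the ratios are descriptions without a test. In each pair the gene with the lower log2 fold change was set over the other. The direction of the ratios, and in part the number of pairs apart, thus follow from the choice of pairs. The ratio of CDC7 to DBF4 was 0.440, 0.453 and 0.483 in control and 0.333, 0.314 and 0.274 in TAK1 knockdown cultures. The ratio of TIPIN to TIMELESS was 0.324, 0.302 and 0.307 in control and 0.205, 0.221 and 0.233 in knockdown cultures. Neither overlapped between the groups, and the same held for 8 of the 10 pairs, including PRIM1 to PRIM2, PCNA to RFC1, GINS2 to GINS3 and ORC1 to ORC2. The ratio of POLE2 to POLE and that of GMNN to CDT1 overlapped. The mean ratio of PCNA to RFC1 was 2.16 ± 0.107 in control and 1.72 ± 0.0125 in knockdown cultures (SD, n = 3).

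**Figure D4:**
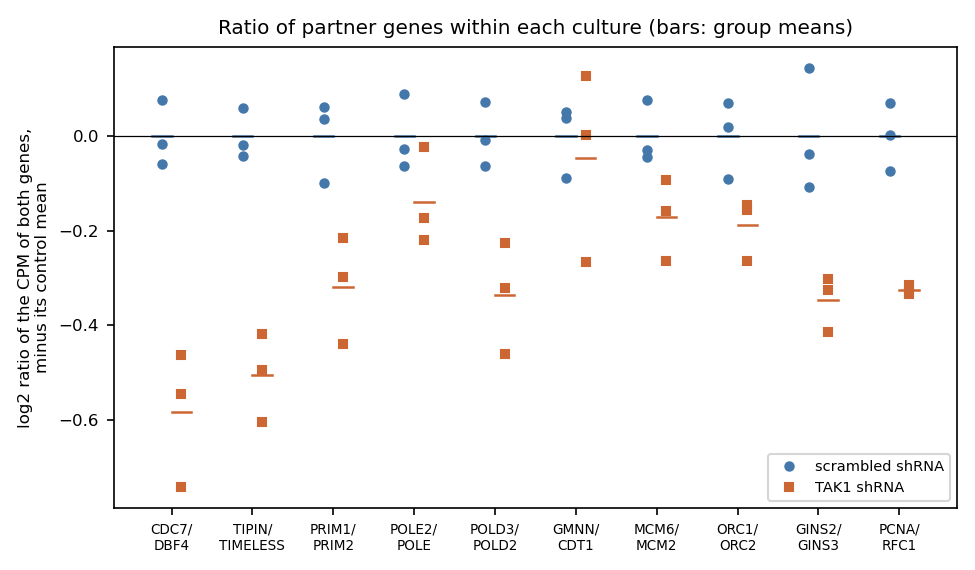
Log2 ratio of the CPM of partner genes within each culture, minus its mean over the scrambled shRNA cultures (y axis), with points for cultures and bars for group means (n = 3 each). The ratios of CDC7 to DBF4 and TIPIN to TIMELESS lie lowest, at means of -0.58 and -0.51, and the groups overlap for POLE2 to POLE and GMNN to CDT1.

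Levels of different genes were compared per length, in RPKM over the exons of the MANE Select transcript. The list spanned a wide range in control cells, with a median of 23.4 RPKM. MCM7 was highest at 282 ± 8.63 RPKM, then UHRF1 at 252 ± 6.45, PCNA at 131 ± 0.370 and POLD2 at 127 ± 3.93 RPKM (SD, n = 3). At the low end stood GINS3 at 6.14 ± 0.597 and POLA2 at 3.83 ± 0.245 RPKM. Of the 50 pairs of neighbours in this order, 21 were apart in all control cultures, and the order of the others lies within their spread. The subunits of the MCM ring were not level, since MCM4, MCM2, MCM3, MCM6 and MCM5 followed MCM7 at 79.6, 61.3, 60.4, 49.8 and 41.9 RPKM. The 10 genes with the highest level were the same in both groups, although PCNA passed from the third place to the fourth behind POLD2 in knockdown cells. The order depends on the length taken. With the length of all annotated exons, an alternative chosen after seeing the data, UHRF1 was first at 191 RPKM and MCM7 second at 140.5 RPKM, MCM4 was at 32.8 RPKM, below MCM3, MCM6 and MCM2, POLD2 was in place 16 and the median of the list was 13.9 RPKM.

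Other genes of the same process, and the 2 processes nearest to it, are given for comparison from lists written by role. Of 54 further replication genes, 16 (29.6%) were lower and 0 higher, beside 11.3% and 11.8% of all genes tested, with a median log2 fold change of -0.13. PCLAF, which binds PCNA, and SKP2, a ubiquitin ligase subunit that acts on CDK inhibitors and CDT1, fell most, by 1.13 and 0.75 on the log2 scale. At the other end were ZRANB3 and POLE3, a small subunit of polymerase epsilon, at 0.18 and 0.20, neither called. In both, all knockdown cultures lay above all controls, an order found in 21.6% of genes tested. POLE3 was higher by adjusted p (0.00379 by edgeR) but under the fold threshold, like POLD2, and ZRANB3 passed neither threshold. By role, 5 of 13 genes for chromatin behind the fork, 3 of 8 for origin firing, 2 of 5 for clamp loading and unloading, 2 of 6 for ubiquitin ligases, 1 of 2 topoisomerases, 2 of 12 for the S phase checkpoint and 1 of 8 for polymerase and primer removal were lower. The last 2 shares, 16.7% and 12.5%, lie near the 11.3% of all genes tested, and no difference between roles was tested. The last role includes RNASEH2A, at 0.606 to 1.19 CPM, and POLD4, at 2.14 to 3.91 CPM, levels at which a change is hard to call. With library size alone as the scaling, 9 of the 54 and 1404 of all 15935 genes were lower.

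Of 13 genes for nucleotide synthesis, 8 (61.5%) were lower, beside 11.3% of all genes tested, with a median of -0.32. RRM2B and DUT fell most, by 0.79 and 0.58, and DCTD and SAMHD1 stood at -0.021 and 0.054. Of 30 mitosis genes, 20 (66.7%) were lower, beside the same 11.3%, with a median of -0.30, from KIF23 and AURKA at -0.80 and -0.75 to BIRC5 and CCNB2 at -0.11 and -0.10. PRC1, which was not called, stood at only 1.06 to 2.50 CPM. No gene of these lists was called higher, and the differences between lists were not tested.

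**Figure D5:**
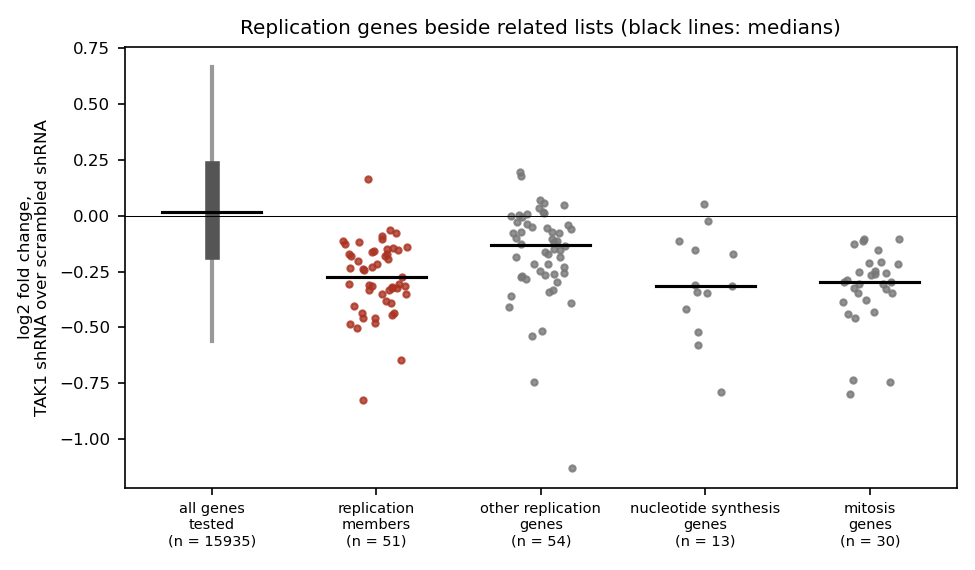
Log2 fold changes (y axis) of all genes tested, drawn as the 5% to 95% range and the middle 50%, and of single genes of the replication list (n = 51), further replication genes (n = 54), nucleotide synthesis (n = 13) and mitosis (n = 30), with medians as black lines. The medians are 0.018, -0.28, -0.13, -0.32 and -0.30.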

How the data were processed

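Poly(A)-enriched RNA of 6 RD cultures was sequenced. Per the labels and the study's methods, the authors removed adaptor and low-quality reads, aligned the rest to GRCh38 with STAR and deposited raw counts per gene symbol; the counter, annotation release and strand setting are not given in the sources used here. Differential expression was computed from these counts with edgeR 4.0.16 in R 4.3.3 (default filter, trimmed mean of M-values, quasi-likelihood test, p-values adjusted by Benjamini-Hochberg across 15935 genes). The thresholds on adjusted p and fold are those of the study's methods. Standard errors are the log2 fold change over the root of F, with 95% intervals. The common biological coefficient of variation was 5.67%, and the genes listed had 344 to 30437 reads per culture. Replicates differed beyond sampling noise, with chi-square per degree of freedom from 2.86 to 8.67. Alternatives were DESeq2 1.42.0, limma 3.58.1 (voom), 3 scalings, 2 filters, 2 fold thresholds, the replicate number as a block, and each culture left out. Tests were checked on simulated data. Lengths, coordinates and overlaps came from GENCODE 44 and promoters from RefSeq, taking the window nearest the MANE Select start. The genes and lists were chosen with earlier results of these data known. Values per culture are given for the lowest and highest log2 fold change in each of 12 role groups and the 3 largest falls. Of the further lists, the 2 lowest and 2 highest log2 fold changes are named, as are genes with very low levels.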

Additional observations from a re-analysis of the deposited data

How the results depend on the processing

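No log2 fold change of the 51 genes changed sign under any of the 16 alternatives, of which the 2 fold thresholds reuse the main fit and could not change one. The count of 26 lower genes was 26 with DESeq2, limma voom, both other filters and 2 of the 3 other scalings, and 25 with library size alone. It depends on the fold threshold, with 40 lower and 1 higher when there was none and 3 of 51 lower at 0.5. At 0.5, 680 of all 15935 genes were lower and 735 higher, so the share of the replication genes lay near that of all genes. Without a fold threshold 2734 of all genes were lower. At 0.5 the further replication, nucleotide synthesis and mitosis lists held 4, 3 and 3 lower genes, and library size alone left 9 in the first. The median of the replication genes was -0.23 with library size alone, where the median of all genes was 0.066. With each culture left out, the median of the replication genes ranged from -0.29 to -0.24, the latter without replicate 1 of the TAK1 knockdown cultures. The number of lower replication genes ranged from 24 to 30, beside 1675 to 1931 of all genes, of 16227 to 16427 tested. The 30 and the 1931 came from the same fit, without replicate 3 of the knockdown cultures. Calls then lost were those of POLE2, TOPBP1 and WDHD1, and those gained DBF4, LIG1, MCM4, ORC5 and RFC2. With only TTTGGCGC and TTTCCCGC as motifs, 42.2% of windows held a match. A replicate block also gave 26 lower genes and changed no call of the 51. The replicate numbers are not stated to pair cultures, and deviations of same-numbered cultures correlated at 0.037, 0.036 and 0.016. With 3 cultures a group, the 95% intervals were 0.17 (UHRF1) to 0.40 (GINS3) log2 units wide, which limits what can be said of the 10 genes that passed neither threshold.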
